A study of Mus musculus with 2 samples.

Results

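Glycolysis and hypoxia-response genes are described here in a mouse bowel carcinoma line stimulated with lipopolysaccharide (LPS), a glycolipid of the Gram-negative cell envelope. The set holds 42 genes listed by symbol, 25 of glucose transport and glycolysis and 17 of the hypoxia response outside glycolysis. Each gene was found on the arrays by its name and read from its brightest probe, and all 42 were present among 34648 gene names. Of the 42, 39 were measured, meaning that both arrays showed this probe well above background, out of 20328 measured genes in all.

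The LPS group was CMT93 cells stimulated with LPS at 3 µg/mL for 24 h, and the control group was CMT93 cells labelled only as control. CMT93 is an established line of colon carcinoma cells whose labels give the rectum as tissue, C57BL/ICRF as strain and 19 month as age. The treatment text stood on both samples, so dose and time were taken to belong to the LPS sample. Total RNA was labelled with Cy3 and read on one-colour Agilent arrays. With 1 array in each group there is no replicate check on any difference, and no p-value was computed. The labels name 1 line, which limits these arrays as a model of bowel epithelium, and they describe no vehicle and no oxygen measurement.

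The arrays were of like quality, with 32448 of 59305 spots (54.7%) well above background on the LPS array and 33091 (55.8%) on the control array, and no spot was saturated. The arrays shared 1 slide and 1 scan, so array position and group cannot be told apart. All 8 epithelial marker genes were measured, as the labelled origin calls for. All 8 were lower on the LPS array, with a median log2 difference of -0.19 and a summed signal of 1009.6 on the LPS array and 1131 on the control array. The keratin genes Krt18 and Krt8 gave the brightest signals on this list and were lower by 0.14 and 0.19 on the log2 scale. Krt20 and Vil1, chosen after their values were seen, went past 1.5-fold, at -0.92 and -0.72. Of 8 macrophage markers 2 were measured, with summed signals of 4.66 on the LPS array and 4.19 on the control array, and both arrays left Lyz2, Tyrobp and Laptm5 below that mark. Emr1 and Mrc1 were above background on the LPS array alone, at least 1.96-fold and 1.83-fold higher, and Ptprc on the control array alone, at least 3.03-fold lower. Of 6 fibroblast, 4 endothelial and 5 lymphocyte markers, 2 each were measured, with summed signals of 0.413, 8.63 and 1.97 on the LPS array and 0.337, 8.37 and 1.95 on the control array. The fibroblast marker Pdgfra was above background on the control array alone, at least 1.96-fold lower. Both measured fibroblast markers were dim and higher on the LPS array, Col1a2 by 0.91 and Col1a1 by 0.33 on the log2 scale. Emr1, Mrc1, Ptprc and these fibroblast markers are named with their values already known. The part of these markers in the results below was not tested.

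Glycolysis splits glucose into pyruvate and yields ATP without oxygen, and lactate dehydrogenase then turns pyruvate into lactate, which leaves the cell by monocarboxylate transporters. Hypoxia-inducible factor (HIF) is a transcription factor whose alpha subunit is marked for destruction by oxygen-dependent prolyl hydroxylases, so that it builds up when oxygen is short. It binds DNA at short cores, ACGTG and GCGTG, near genes of glycolysis, iron handling, blood vessel growth and mitophagy. The lining of the colon lives at low oxygen, and LPS acting through Toll-like receptors is known in macrophages to raise HIF alpha transcript and protein.

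The promoters of members were searched for the cores ACGTG and GCGTG on both strands. A CACGTG, the E-box that other factors also bind, holds ACGTG on each strand and was counted once as a stretch in the sequences below. RefSeq promoters of GRCm38.p6, 300 bases from 250 before the transcript start to 50 after it, were found for 39 of the 42 members (all but Bnip3l, Ndrg1 and Slc2a3), 61 promoters in all. ACGTG stood in 33 of the 61 promoters (54.1%), against 3260 of 13316 promoters of measured genes (24.5%) and 6447 of all 32851 promoters (19.6%). Base composition differs too, with a median of 62% G and C in member promoters, 60% in promoters of measured genes and 52.7% in all. Among 6131 promoters of measured genes within the middle range of G and C content of the members, 27.4% held ACGTG. The core GCGTG was in 55.7% of member promoters, against 55.9% of the promoters of that G and C range and 32.4% of all promoters. CACGTG was in 11.5% of member promoters, against 10.8% in that range and 7.15% of all. The members include genes listed for their known HIF sites, so these shares describe the list.

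Upstream stretches of 250 bases are printed for 6 members, chosen after their values were seen, since Pfkfb3, Ero1l, Hk2, Bnip3 and Slc16a3 were the 5 measured members with the largest differences and Ldha held the most ACGTG stretches of these. Sequences run 5′ to 3′ on the strand of the gene and end at the base before the start, with every match to either core on either strand in capitals. A match is a run of letters and no measured site of binding.
Pfkfb3 (chr2:11502091-11502340, minus strand): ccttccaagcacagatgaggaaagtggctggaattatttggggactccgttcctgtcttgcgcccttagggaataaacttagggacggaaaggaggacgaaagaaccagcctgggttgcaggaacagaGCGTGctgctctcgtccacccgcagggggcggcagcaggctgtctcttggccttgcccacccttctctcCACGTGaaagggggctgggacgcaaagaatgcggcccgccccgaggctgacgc
Ero1l (chr14:45318573-45318822, minus strand): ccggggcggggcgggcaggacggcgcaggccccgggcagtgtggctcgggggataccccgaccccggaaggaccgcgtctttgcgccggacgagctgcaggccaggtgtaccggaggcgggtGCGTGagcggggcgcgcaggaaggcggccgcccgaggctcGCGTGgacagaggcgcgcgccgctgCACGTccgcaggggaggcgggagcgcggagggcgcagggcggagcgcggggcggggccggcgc
Hk2 (chr6:82774455-82774704, minus strand): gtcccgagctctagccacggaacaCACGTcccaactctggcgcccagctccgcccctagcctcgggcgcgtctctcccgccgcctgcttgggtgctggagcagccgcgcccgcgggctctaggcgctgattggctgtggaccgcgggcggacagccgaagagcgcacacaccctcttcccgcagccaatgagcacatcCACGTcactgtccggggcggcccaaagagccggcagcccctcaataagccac
Bnip3 (chr7:138909507-138909756, minus strand): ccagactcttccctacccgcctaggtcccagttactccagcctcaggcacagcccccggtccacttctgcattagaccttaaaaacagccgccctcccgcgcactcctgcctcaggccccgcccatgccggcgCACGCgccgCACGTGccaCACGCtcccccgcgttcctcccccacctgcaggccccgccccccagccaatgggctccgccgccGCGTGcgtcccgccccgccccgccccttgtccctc
Slc16a3 (chr11:120948817-120949066, plus strand): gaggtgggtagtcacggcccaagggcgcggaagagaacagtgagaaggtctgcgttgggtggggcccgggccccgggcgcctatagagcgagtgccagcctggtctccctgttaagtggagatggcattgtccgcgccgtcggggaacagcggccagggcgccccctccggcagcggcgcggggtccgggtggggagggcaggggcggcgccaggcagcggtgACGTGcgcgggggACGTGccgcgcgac
Ldha (chr7:46845554-46845803, plus strand): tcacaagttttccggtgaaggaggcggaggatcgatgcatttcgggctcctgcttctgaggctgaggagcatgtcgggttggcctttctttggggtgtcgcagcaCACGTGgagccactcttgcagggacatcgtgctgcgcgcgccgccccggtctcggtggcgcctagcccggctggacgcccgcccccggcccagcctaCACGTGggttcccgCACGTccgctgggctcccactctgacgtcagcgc
The Pfkfb3 stretch holds 1 CACGTG, which starts 53 bases before the transcript start. The Ero1l stretch holds 1 ACGTG, 63 bases before the start on the other strand, and 2 GCGTG. Hk2 holds 2 ACGTG, the nearer 52 and the farther 226 bases before the start. Bnip3 holds 1 CACGTG and 3 GCGTG. Slc16a3 holds 2 ACGTG within 27 bases of the start. Ldha holds 3 ACGTG stretches between 34 and 145 bases before the start, and 2 of them are CACGTG. Ldha and Pfkfb3 each have another promoter that is not printed. Upstream of its start, that of Ldha (chr7:46846832-46847081) holds 0 ACGTG and 1 GCGTG. That of Pfkfb3 (chr2:11553930-11554179) holds 1 ACGTG and 0 CACGTG.

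Most members were higher on the LPS array, by small amounts. Signals are given in multiples of the 75th percentile of each array, and a log2 difference is LPS minus control. Of the 39 measured members, 36 lay above 0, against 44.5% of all measured genes. The median log2 difference of the members was 0.38, a fold of 1.30, and that of all 20328 genes was -0.02. Of the members, 12 were at least 1.5-fold higher, against 3.59% of all measured genes, and 2 were at least 2-fold higher, against 1.46%. None of the 39 reached 1.5-fold in the lower direction, against 2.68% of all measured genes, and none reached 2-fold in that direction, against 0.571%. The other 27 measured members differed by less than 1.5-fold. Slc2a3, above background on the control array alone, is outside these counts, and its LPS level was at least 2.04-fold lower.

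The hypoxia genes outside glycolysis had a higher median than the glycolysis genes. The 24 measured glycolysis members had a median log2 difference of 0.34, with 21 above 0 and 5 at least 1.5-fold higher. The 15 measured hypoxia members had a median of 0.53, with all 15 above 0 and 7 at least 1.5-fold higher. The ± given beside a member is the slide SD, the SD of the log2 difference over spots of probes printed 10 times and of like brightness, at 0.14, 0.055, 0.041 and 0.028 from the dimmest to the brightest 25% of these probes. Hk1, Gpi1, Aldoa, Gapdh, Pgk1, Pgam1, Eno1 and Ldha were brighter than every probe printed 10 times. They were given the SD of the brightest 25%, which was not measured at their brightness. The slide SD covers the slide alone, holds no spread between cultures, and cannot show that a difference would come back in another culture. RNA came from bulk cells, so a difference in the share of cells and a difference in RNA per cell cannot be told apart.

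**Figure D1:**
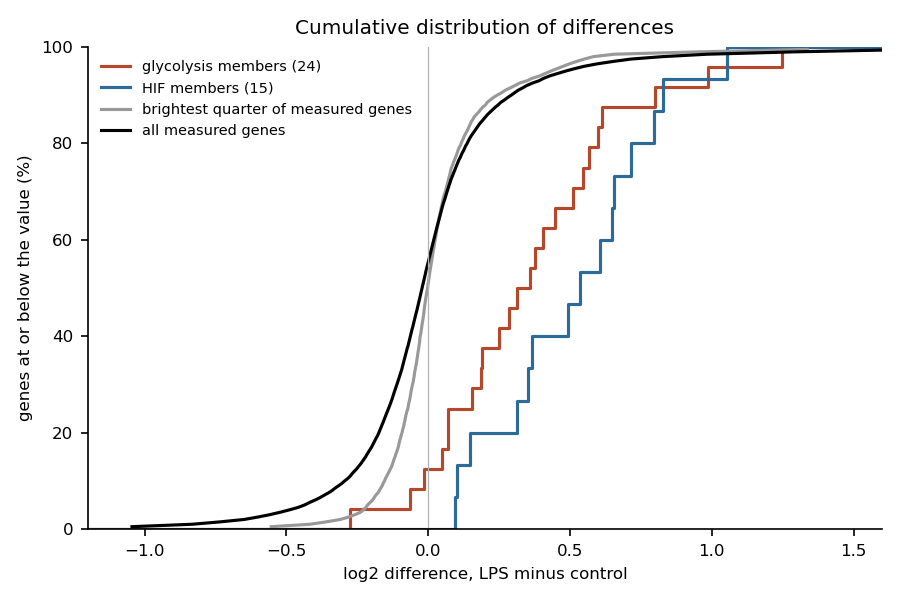
Cumulative share of genes (vertical axis, %) by log2 difference, LPS minus control (horizontal axis), for 24 glycolysis members, 15 HIF members, the brightest 25% of measured genes and all 20328 measured genes. Over most of the range both member curves lie to the right of both gene curves, and they cross them near the upper end. At the lower end the glycolysis curve also crosses that of the brightest 25%. The medians are 0.34 and 0.53 for the members, -0.0024 for the brightest 25% and -0.02 for all genes.

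Many glycolysis genes are among the brightest on the arrays, so they were also set beside genes of like brightness. Among the brightest 25% of measured genes, 24 members stood, of which 23 were above 0, against 49.0% of the 5082 genes there, and 9 were at least 1.5-fold higher, against 1.93%. The 15 members outside that range had a median of 0.37, against 0.39 for the 24 inside it. A split at higher brightness differed more, with a median of 0.37 for the 16 brightest members and 0.49 for the other 23. The part of brightness in this was not tested.

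Glucose enters through facilitative carriers, and 1 of the 2 members was measured. Slc2a1, which encodes the widespread basal glucose carrier, gave 43.5 on the LPS array and 35.8 on the control array. It was higher by 0.28 ± 0.028, a fold of 1.22. Slc2a3, which encodes a high-affinity carrier known from neurons, gave 0.00645 on the LPS array and 0.0547 on the control array, and only the control value was well above background. As a bound, the LPS level was at least 2.04-fold lower, and the probe (mm9, chr6:122678075-122678134, minus strand) was the only one for that gene. The 2 carriers thus lay on opposite sides of 0. Probe positions are those in the files, and the exon or UTR they fall in was not analysed here.

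**Figure D2:**
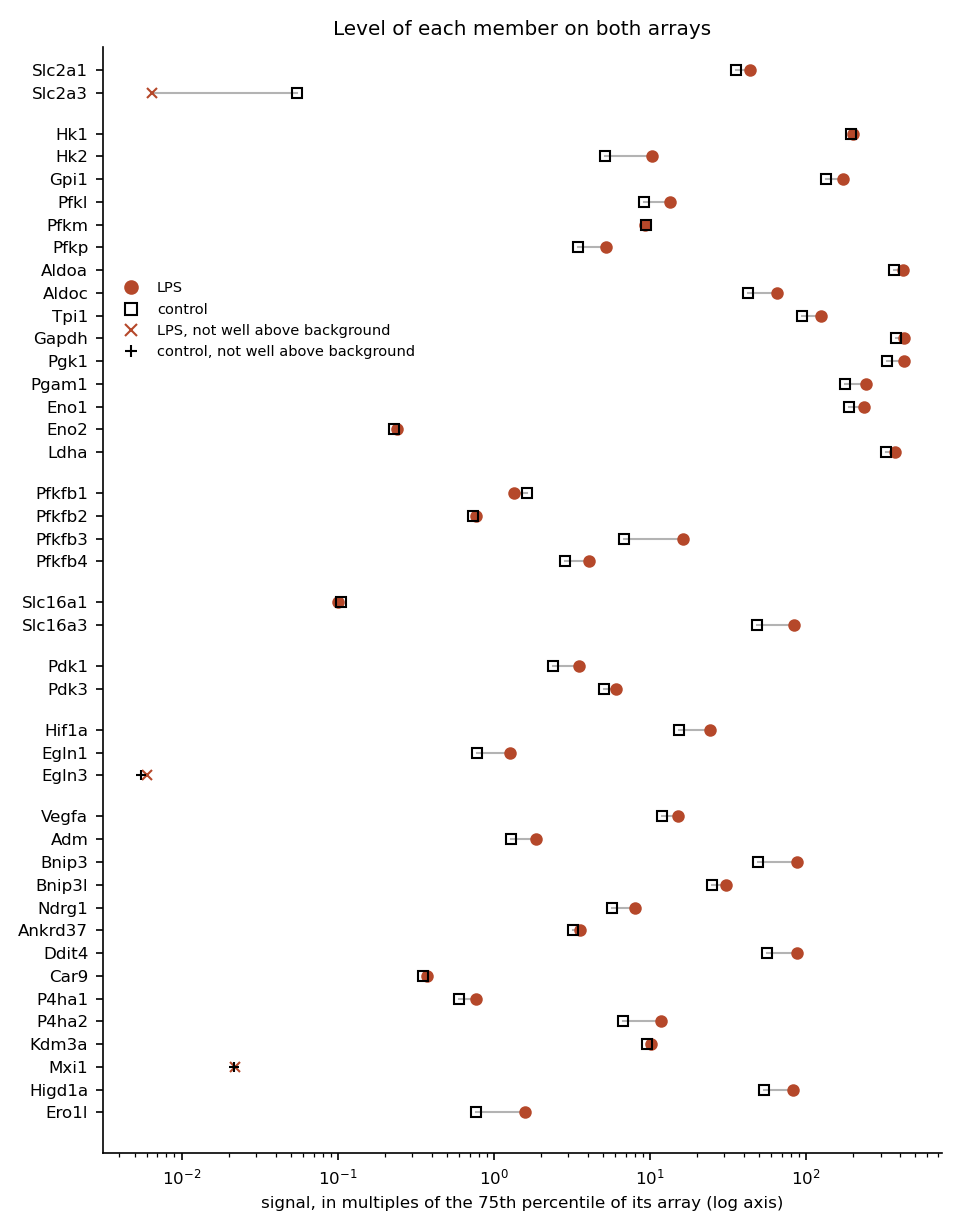
Signal of all 42 members on the LPS array (filled circles) and the control array (open squares) on a log axis, in multiples of the 75th percentile of each array, grouped by role from glucose transport to HIF targets. Crosses and plus signs mark values not well above background, and of the 3 members with such marks Slc2a3 has one on the LPS array alone.

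The first step is the phosphorylation of glucose. Hk2, which encodes the inducible hexokinase that sits on mitochondria, gave 10.3 on the LPS array and 5.19 on the control array. It differed most among the glycolytic enzymes, by 0.99 ± 0.028, a fold of 1.98 that just misses 2-fold, and 1.49% of measured genes were higher. Its probe lies at mm9 chr6:82675056-82675115 on the minus strand. Hk1, which encodes the housekeeping hexokinase, gave 201 on the LPS array and 194 on the control array. The difference of that probe was 0.049 ± 0.028, and with quantile normalization it turned to -0.026. The other 2 Hk1 probes differed more, by 0.61 at signals of 21.7 on the LPS array and 14.2 on the control array, and by 0.36 at 1.39 and 1.09.

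Gpi1, which encodes the isomerase of the next step, gave 174 on the LPS array and 134 on the control array, higher by 0.38 ± 0.028. Its 3 probes, which overlap in position, lay between 0.38 and 0.44. Phosphofructokinase, the main control point of glycolysis, has 3 subunit genes that spread from -0.017 to 0.60 on the log2 scale. Pfkl, the liver-type subunit, gave 13.4 on the LPS array and 9.19 on the control array, a fold of 1.46. Pfkp, the platelet-type subunit, gave 5.2 on the LPS array and 3.44 on the control array, a fold of 1.51, with a further probe at 0.71 on the log2 scale. Pfkm, the muscle-type subunit, gave 9.35 on the LPS array and 9.46 on the control array. Its difference of -0.017 came from 10 spots with an SD of 0.013, and turned to 0.028 with spike-in scaling. Both Pfkl and Pfkp lay close to 1.5-fold, and their differences on the log2 scale were 0.55 ± 0.028 and 0.60 ± 0.041.

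Aldolase cuts the sugar into 2 trioses. Aldoa, the main aldolase of muscle and of many cultured cells, gave 419 on the LPS array and 368 on the control array, higher by 0.19 ± 0.028. Aldoc, the aldolase known from brain, gave 65.2 on the LPS array and 42.6 on the control array, higher by 0.61 ± 0.028, a fold of 1.53. Tpi1, which interconverts the trioses, gave 125 on the LPS array and 94.5 on the control array, higher by 0.41 ± 0.028. These 3 genes were all higher on the LPS array, and Aldoc alone among them passed 1.5-fold.

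The lower steps that yield ATP and pyruvate all lay above 0 by less than 1.5-fold. Gapdh, which encodes glyceraldehyde phosphate dehydrogenase and is often used as an unchanging control, gave 422 on the LPS array and 379 on the control array, higher by 0.15 ± 0.028. Pgk1, the kinase that makes ATP in the next step, gave 423 on the LPS array and 330.5 on the control array, higher by 0.36 ± 0.028. Pgam1, a mutase, gave 241 on the LPS array and 177 on the control array, higher by 0.45 ± 0.028. By brightest probe it was the highest of these lower steps, though dimmer probes of Ldha and Gapdh reached 0.51 and 0.47. Eno1, the widespread enolase, gave 235.5 on the LPS array and 189.5 on the control array, higher by 0.31 ± 0.028. Eno2, the neuronal enolase, was dim, at 0.241 on the LPS array and 0.23 on the control array, and its difference of 0.070 was less than its slide SD of 0.14. Ldha, which encodes the lactate dehydrogenase subunit that favours lactate, gave 372 on the LPS array and 327 on the control array, higher by 0.19 ± 0.028. Over the whole path, 14 of the 15 enzyme genes lay above 0, 3 were at least 1.5-fold higher (Hk2, Pfkp and Aldoc), and the median was 0.36.

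**Figure D3:**
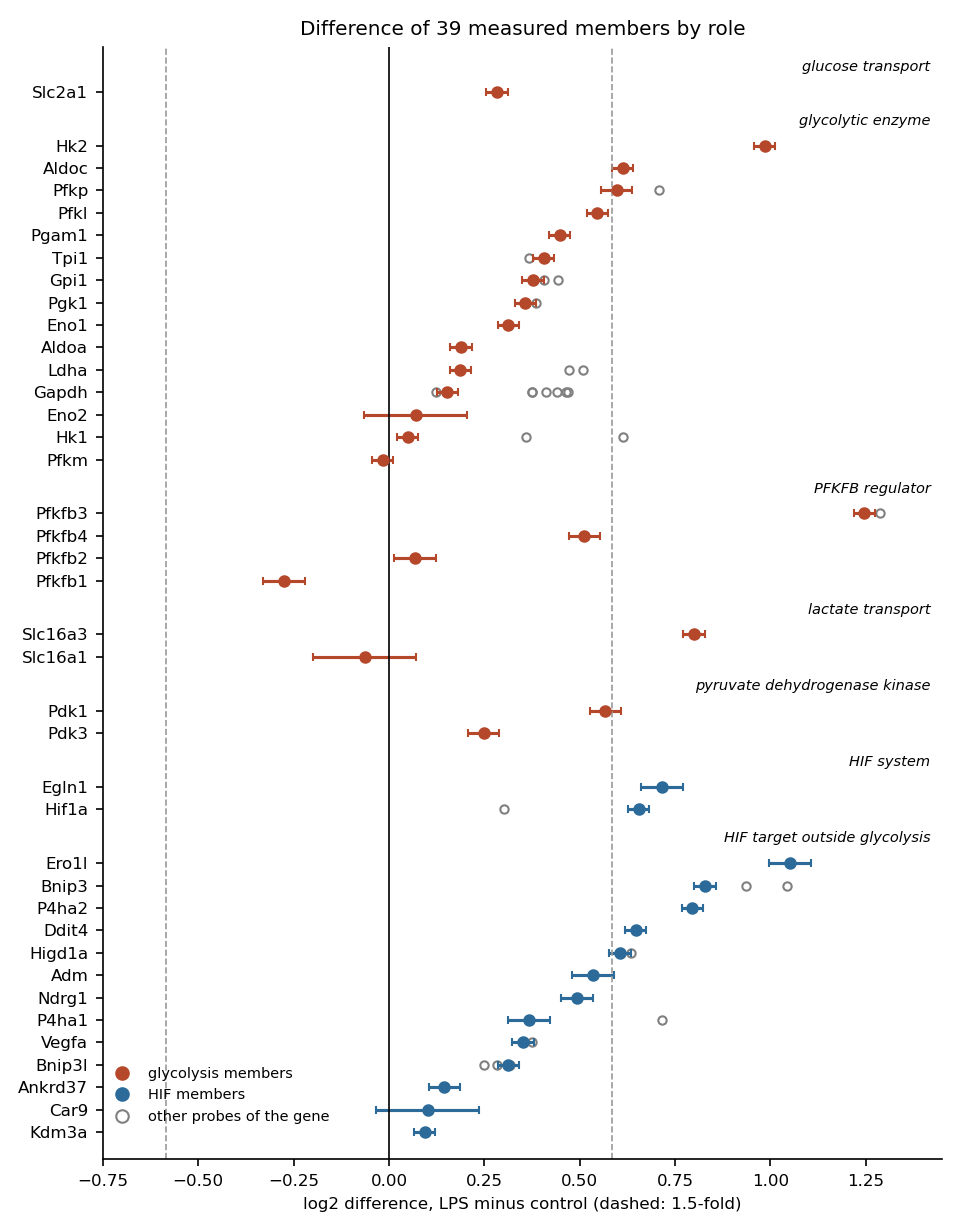
Log2 difference, LPS minus control, of the 39 measured members by role (filled points, bars ± 1 slide SD), with other measured probes of the same gene as open circles and dashed lines at 1.5-fold. The highest points are Pfkfb3 at 1.25, Ero1l at 1.05 and Hk2 at 0.99, and Pfkfb1 at -0.28 is the lowest.

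For Gapdh, Ldha and Hk1, most dimmer probes gave larger differences than the brightest probe, while for Tpi1 the dimmer probe gave 0.37 and the brightest 0.41. Gapdh had 8 measured probes. Its brightest 2 gave 422 and 403 on the LPS array and 379 and 369.8 on the control array, and differed by 0.15 and 0.12. The other 6 gave 64.9 to 322 on the LPS array and 46.9 to 248 on the control array, and differed by 0.37 to 0.47. The probes at 0.12 and 0.37 have positions on chromosome 7 in the files and the other 6 on chromosome 6, so signal shared with near-identical copies of Gapdh is uncertain. For Ldha, the brightest probe differed by 0.19 and its other 2 by 0.47 and 0.51, at 94.5 and 20.7 on the LPS array and 68.2 and 14.5 on the control array. Of 15 members with more than 1 measured probe, all had every probe on the same side of 0. The range between probes was under 0.1 in 8 of them and at least 0.3 in 5, namely Hk1, Hif1a, P4ha1, Gapdh and Ldha. Among those 8, the probes of Gpi1, Pgk1 and Slc16a3 overlap in position, so their agreement is no separate check. In 12 of the 15, the mean of the other probes lay above the brightest probe. The part of probe brightness in this was not tested.

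**Figure D4:**
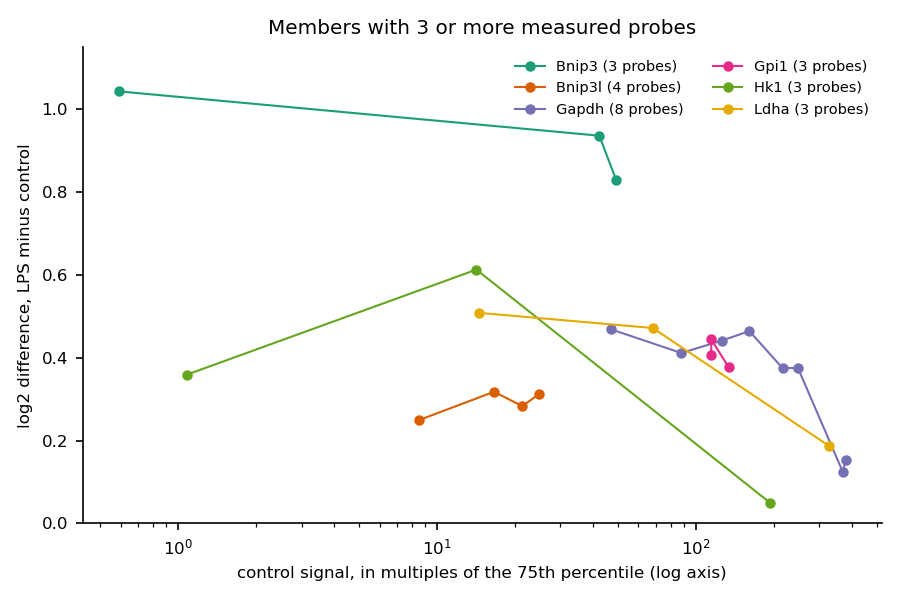
Log2 difference, LPS minus control (vertical axis), of each measured probe of the 6 members with 3 or more probes, against its signal on the control array (log axis, multiples of the 75th percentile); lines join probes of 1 gene. The brightest probes of Gapdh, Ldha and Hk1 lie at 0.15, 0.19 and 0.049 and their other probes reach 0.47, 0.51 and 0.61, while the 3 Bnip3 probes lie at 0.83 to 1.04.

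The PFKFB enzymes make and remove a fructose bisphosphate that activates phosphofructokinase, and the 4 isoenzyme genes spread widely. Pfkfb3, the isoenzyme with the highest kinase over phosphatase activity, gave 16.2 on the LPS array and 6.84 on the control array. Among the 39 measured members it differed most, by 1.25 ± 0.028, a fold of 2.37, and 1.05% of measured genes were higher. A further probe gave 1.29, and the brightest one lies at mm9 chr2:11393453-11393512. Pfkfb4, another isoenzyme induced by low oxygen, gave 4.09 on the LPS array and 2.87 on the control array, higher by 0.51 ± 0.041. Pfkfb2, the heart isoenzyme, gave 0.774 on the LPS array and 0.738 on the control array, a difference of 0.069 ± 0.055. Pfkfb1, the liver isoenzyme, gave 1.35 on the LPS array and 1.63 on the control array, and its difference of -0.28 ± 0.055 was the lowest of the measured members. Of the 4 isoenzyme genes, Pfkfb3 and Pfkfb4 were thus higher on the LPS array by the most, and Pfkfb1 was lower.

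Of the lactate transporter genes, Slc16a3 was higher on the LPS array and Slc16a1 was dim. Slc16a3, which encodes the lactate exporter of glycolytic cells, gave 83.9 on the LPS array and 48.2 on the control array. It was higher by 0.80 ± 0.028, a fold of 1.74, and its other probe, at an overlapping position, gave the same difference to 2 decimals. Slc16a1, a carrier that moves lactate and other monocarboxylates in either direction, was dim at 0.101 on the LPS array and 0.105 on the control array. Its difference of -0.063 was smaller than its slide SD of 0.14, and turned to 0.0098 with cyclic loess.

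Pyruvate dehydrogenase kinases shut pyruvate out of the mitochondrial cycle. Pdk1, a known HIF target, gave 3.53 on the LPS array and 2.38 on the control array, higher by 0.57 ± 0.041, a fold of 1.48. Pdk3, another kinase of that family, gave 6.08 on the LPS array and 5.12 on the control array, higher by 0.25 ± 0.041. Both were higher on the LPS array and neither reached 1.5-fold.

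Both measured members of the HIF system, Hif1a and Egln1, were higher on the LPS array. Hif1a, which encodes the oxygen-regulated alpha subunit, gave 24.2 on the LPS array and 15.4 on the control array. It was higher by 0.65 ± 0.028, a fold of 1.57, and a dim probe of the gene gave 0.30 at 0.131 on the LPS array and 0.106 on the control array. Egln1, the main prolyl hydroxylase that marks HIF alpha for destruction and itself a HIF target, gave 1.27 on the LPS array and 0.777 on the control array, higher by 0.72 ± 0.055, a fold of 1.64. Egln3, a further prolyl hydroxylase strongly induced by low oxygen in many cells, was not well above background on either array, so it has no fold. RNA levels say nothing of the amount of HIF alpha protein, which was not measured.

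Of the 14 HIF targets outside glycolysis, 13 were measured, all above 0, with 5 at least 1.5-fold higher and a median of 0.49. Ero1l, the older name of Ero1a, encodes the oxidase that drives disulfide formation in the endoplasmic reticulum. It gave 1.58 on the LPS array and 0.764 on the control array, higher by 1.05 ± 0.055, a fold of 2.07, with 1.36% of measured genes higher. With normexp background correction the difference was 0.95, under 2-fold.

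Mitophagy and stress genes came next. Bnip3, which encodes a mitophagy receptor, gave 87.5 on the LPS array and 49.3 on the control array, higher by 0.83 ± 0.028, a fold of 1.78. Its other 2 probes gave 0.94 and 1.04. Bnip3l, its relative, gave 30.9 on the LPS array and 24.9 on the control array, and its 4 probes lay between 0.25 and 0.32. All probes of both receptors were thus higher on the LPS array, those of Bnip3 by more. Ddit4, an inhibitor of the growth kinase mTORC1 in stress, gave 88.2 on the LPS array and 56.3 on the control array, higher by 0.65 ± 0.028. Higd1a, a mitochondrial protein gene induced by hypoxia, gave 82.3 on the LPS array and 54.1 on the control array, higher by 0.61 ± 0.028, with its other probe at 0.64. Both passed 1.5-fold by a small margin, with folds of 1.57 and 1.52.

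Collagen hydroxylases followed, which make stable collagen and need oxygen. P4ha2, a prolyl hydroxylase subunit of collagen, gave 11.7 on the LPS array and 6.75 on the control array, higher by 0.80 ± 0.028, a fold of 1.74. P4ha1, the other such subunit, gave 0.773 on the LPS array and 0.599 on the control array, higher by 0.37 ± 0.055. A dimmer P4ha1 probe, at 0.113 on the LPS array and 0.0688 on the control array, gave 0.71.

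Secreted and signalling targets were higher by less than 1.5-fold. Vegfa, the main growth factor of blood vessels, gave 15.2 on the LPS array and 11.9 on the control array, higher by 0.35 ± 0.028, with its other probe at 0.38. Adm, which encodes the vasodilator adrenomedullin, gave 1.86 on the LPS array and 1.28 on the control array, higher by 0.53 ± 0.055. Ndrg1, a stress-induced gene linked to differentiation, gave 8.02 on the LPS array and 5.7 on the control array, higher by 0.49 ± 0.041. These 3 lay at folds of 1.28, 1.448 and 1.41.

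The remaining targets differed little. Ankrd37, an ankyrin repeat gene and HIF target, gave 3.57 on the LPS array and 3.23 on the control array, a difference of 0.15 ± 0.041. Kdm3a, a histone demethylase gene, gave 10.2 on the LPS array and 9.58 on the control array, a difference of 0.093 ± 0.028. Car9, the tumour carbonic anhydrase that is a standard marker of hypoxia, was dim at 0.375 on the LPS array and 0.349 on the control array, and its difference of 0.10 was under its slide SD of 0.14. Mxi1, which encodes an antagonist of MYC, was not well above background on either array. Car9 thus differed by less than the slide SD, and neither Egln3 nor Mxi1 was above background. All 13 measured HIF targets outside glycolysis, Car9 among them, lay above 0, and 5 were at least 1.5-fold higher. The part of HIF in these differences was not tested.

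The promoter windows were also counted apart for the members at least 1.5-fold higher, as a description with no test. Of the 14 promoters of those 12 genes, 12 held ACGTG (85.7%), against 21 of 47 promoters of the other members (44.7%). Those promoters were richer in G and C, with a median of 69.5% against 59%, and both sets were drawn from the members after their values were seen. Counted by gene, ACGTG was found for 11 of those 12 (91.7%), the exception being Pfkp, against 17 of 27 other members (63.0%). Among all measured genes with a promoter the share by gene was 28.2%. The other members include Egln3 and Mxi1, which were not measured.

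Other genes of sugar metabolism had medians nearer 0 than the members. The lists were not chosen for how they moved, though earlier results of these data were known. Other glycolysis isoenzymes and pyruvate entry genes numbered 22 measured, with 9 above 0, none at least 1.5-fold higher, 1 past 1.5-fold in the lower direction and a median of -0.035. Their highest were Pgam2, the muscle mutase, at 0.50 ± 0.14 and Pkm, the pyruvate kinase of most tissues, at 0.34 ± 0.028, with 122 on the LPS array and 95.6 on the control array. Their lowest were the hexokinase-like gene Hkdc1 at -0.72 ± 0.14, 1.65-fold lower, and the insulin-sensitive glucose carrier gene Slc2a4 at -0.42 ± 0.14. Gluconeogenesis genes, which run the path backwards, had 4 measured with a median of -0.17, with pyruvate carboxylase Pcx highest at 0.23 and G6pc3 next at 0.063, and Pck2 lowest at -0.42 next to Fbp2 at -0.40. The 16 measured tricarboxylic acid cycle genes had 9 above 0 and a median of 0.017, from Ogdh at 0.19 and Suclg2 at 0.15 down to Idh3a at -0.23 and Sdhd at -0.24. None of the gluconeogenesis or cycle genes reached 1.5-fold in either direction.

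Side branches of glycolysis held a few higher genes. Of 8 measured pentose phosphate genes, which make NADPH and ribose, 7 lay above 0 with a median of 0.11. H6pd, the dehydrogenase of the endoplasmic reticulum that makes NADPH there, gave 4.14 on the LPS array and 1.92 on the control array, a fold of 2.15. Pgd followed at 0.40, and Pgls and Rpia were lowest at 0.057 and -0.011. Of 10 measured glycogen genes, 8 lay above 0 and 2 were at least 1.5-fold higher. These were Gys1, the glycogen synthase outside liver, at 10.11 on the LPS array and 5.66 on the control array, a fold of 1.79, and Pgm2, a phosphoglucomutase gene, at 43.7 on the LPS array and 24.7 on the control array, a fold of 1.77. Gyg and Pygb were lowest at -0.0092 and -0.060.

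HIF subunits and regulators beyond the members had a median near 0, while that of further HIF targets lay near the glycolysis members. Of 15 measured subunit and regulator genes, 10 lay above 0, none reached 1.5-fold and the median was 0.020. Cited2, an inhibitor of HIF that competes for its coactivator, was highest at 0.57, followed by Vhl, the ligase subunit that destroys HIF alpha, at 0.35. Egln2 and Hif1an, both oxygen-sensing hydroxylases, were lowest at -0.12 and -0.14.

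Of 31 further measured HIF targets, 29 lay above 0, 7 were at least 1.5-fold higher and none as far below 0, with a median of 0.32. Those 7 included Plod2 at 0.91, Ak4 at 0.86, Car12 at 0.84, Fam162a at 0.77, Loxl2 at 0.68 and Edn1 at 0.66. The genes named encode a collagen lysyl hydroxylase, a mitochondrial adenylate kinase, a carbonic anhydrase, a mitochondrial protein, a lysyl oxidase and the vasoconstrictor endothelin. Yeats2 and Tfrc, the transferrin receptor gene, were lowest at -0.15 and -0.035. Flt1, a VEGF receptor gene, was above background on the LPS array alone and at least 1.90-fold higher, and Trf, which encodes transferrin, was above background on the control array alone and at least 1.52-fold lower.

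**Figure D5:**
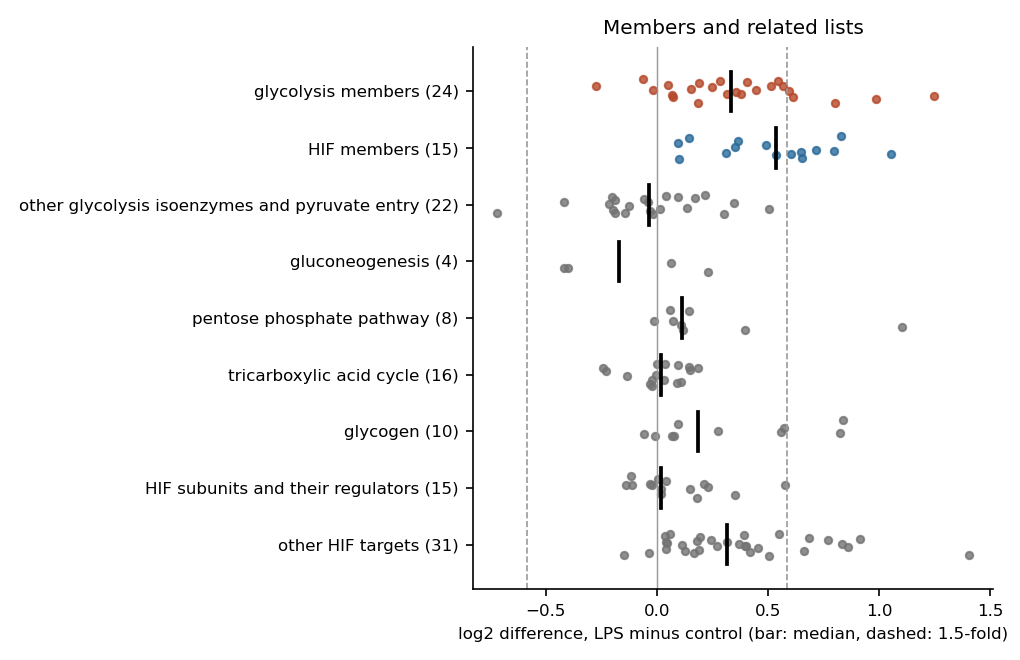
Log2 difference, LPS minus control, of each measured gene (points) in the glycolysis members, the HIF members and 7 lists of other genes, with bars at the medians, dashed lines at 1.5-fold and the number measured in brackets. The medians of the members, 0.34 and 0.53, and of the further HIF targets, 0.32, lie right of those of the other 6 lists, which lie between -0.17 and 0.18.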

How the data were processed

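One-colour Cy3 arrays held total RNA of 1 LPS and 1 control sample of CMT93 cells, grouped by their titles. The deposited spot intensity came from Agilent Feature Extraction 10.10.1.1, which subtracted background and a trend over the slide, per the file headers. The probe design names build mm9.

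Control spots and 223 spots flagged on either array were left out. Processed intensity was log2 transformed, less the 75th percentile of the array's non-control spots. Spots of a probe were averaged, and a gene name took its brightest probe. A gene above background on 1 array was given a bound. Genes were counted at 1.5-fold and 2-fold, without a test, since a group held 1 array.

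The named genes were all 42 members, the 2 highest and 2 lowest genes of each of 7 other lists, any of these at least 1.5-fold different, and the 2 brightest epithelial markers. A gene that this rule takes is not reported here. Members, lists and alternatives were chosen with earlier results of these data known. The slide SD came from 254 probes above background among 399 printed 10 times.

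The alternatives were cyclic loess (span 0.7), quantile normalization, normexp (offset 50), median centring, subtracted signal with a floor of 1, the percentile of detected probes, scaling on 7 spike-in probes, the median over probes, and 3 other filters. The tools were limma 3.58.1 in R 4.3.3, and numpy 2.4.6, pandas 2.3.3 and matplotlib 3.10.9 in Python 3.11.15.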

Additional observations from a re-analysis of the deposited data

How the results depend on the processing

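No paired analysis was possible because each group had 1 array. Between 35 and 37 of 39 members lay above 0 under every other background correction, scaling and probe rule, and 30 of 32 once genes below the median brightness were left out. The count at least 1.5-fold higher, 12, ran from 8 with quantile normalization to 14 with spike-in scaling. Aldoc, Ddit4, Hif1a, Higd1a, Pdk1, Pfkl and Pfkp changed sides of 1.5-fold under at least 1 alternative. The count of members at least 2-fold higher, 2, was 1 with normexp and 1 among brighter genes, but 3 with cyclic loess and 3 with spike-in scaling, where Hk2 passed 2-fold. Without a background filter 1 member was at least 1.5-fold and 1 at least 2-fold lower. The median of the glycolysis members, 0.34, was 0.28 with quantile normalization and 0.39 with the median over probes, and that of the HIF members ran from 0.49 to 0.58. Of 288 values of single members that an alternative could change, 223 moved by less than the slide SD and 65 by more, and those of Hk1, Pfkm and Slc16a1 changed sign under 1 alternative each.

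Counts over all measured genes changed more. Genes at least 1.5-fold higher, 729, were 451 with normexp, 2551 without a background filter, 1624 with the weaker filter for signal above background and 220 among brighter genes. In the same order of alternatives, genes at least 2-fold higher, 296, were 170, 1358, 745 and 94. Genes at least 1.5-fold lower, 545, were 198, 2459, 1526 and 75. Genes at least 2-fold lower, 116, were 37, 1174, 553 and 15. The higher genes made up 57.2% of those at 1.5-fold, against 69.5% with normexp and 74.6% among brighter genes, and ran down to 50.9% without a background filter and 51.6% with the weaker filter. The cause of these shifts was not tested. The filters themselves change which genes are counted, and dim genes, with a slide SD of 0.14, are measured least well.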
